A study of Mus musculus with 26 samples.

Results

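Mitochondria keep their own ribosome, built from mitochondrial ribosomal RNA and from proteins whose genes, named Mrpl for the large subunit and Mrps for the small subunit, lie in the nucleus. The mitoribosome makes the few membrane subunits of the respiratory chain and ATP synthase that mitochondrial DNA encodes, so its proteins stand between nuclear gene expression and oxidative phosphorylation. Microglia, the resident macrophages of the brain, use both oxidative phosphorylation and glycolysis, and the balance between them is known to shift when these cells are activated.

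The genes were taken by symbol, Mrpl or Mrps followed by a number, from the RefSeq names of the array's probes. RefSeq held 84 such symbols, 78 of them protein-coding genes and 6 pseudogenes, and 78 genes had a probe on the array. A gene counted as measured where a probe was well above background, by the scanner software's own flag, on at least 3 arrays of at least 1 of the 8 groups, and each gene was read from its brightest passing probe, by mean level on all 26 arrays. This left 76 genes, 47 named Mrpl and 29 named Mrps, of 24738 genes tested in all. The 2 that did not pass were Mrpl28, well above background on 11 arrays but on no more than 2 of any group, and Mrpl21, on 1 array. Their mean levels were -3.49 and -4.90. Just inside the rule, with 3 arrays in their best group, lay Mrpl9, Mrpl35, Mrpl40, Mrpl46, Mrps9, Mrps17, Mrps26 and Mrps35, with mean levels between -4.11 (Mrpl35) and -0.03 (Mrps17). Mrpl35 met the rule through TLR-DKO mPFC R-SDS alone, Mrpl1 through TLR-DKO NAc R-SDS alone, Mrpl9 through WT NAc R-SDS alone, and Mrps5 through the stressed NAc groups of both genotypes. Differences of these 4 genes that set those groups against others partly restate the rule and are descriptions. All levels here are log2 of the processed probe signal minus the 75th percentile of that signal on the same array, so that 0 stands for that percentile. In the main fit, differences are those of a probe's own level between arrays. Levels of different probes serve to pick the brightest probe, to class genes by level and to describe or sum gene lists.

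By role, 27 of 29 large-subunit proteins with a bacterial homologue were measured, and all 19 large-subunit proteins found only in mitochondria. In the small subunit, all 16 proteins listed here with a bacterial homologue and all 10 listed as found only in mitochondria were measured. Mrps28 was counted in the second of these lists, a placing that is open to question. The remaining 4 carry an Mrp symbol but were listed apart, for their place or for a further role. Mrps18a and Mrps30 are proteins of the large subunit, Mrpl58 is a peptidyl-tRNA hydrolase that rescues stalled mitoribosomes, and Mrps36 is a component of the alpha-ketoglutarate dehydrogenase complex.

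The arrays measured microglia of C57BL/6 mice, sorted as EGFP-positive cells from 1.5 mm punches of the nucleus accumbens (NAc), a striatal region of reward, or the medial prefrontal cortex (mPFC). Every mouse, controls included, carried EGFP in place of 1 copy of Cx3cr1 (CX3CR1EGFP/+), so all groups had a single working copy of this fractalkine receptor gene. The gate can also hold other cells that use this promoter, such as perivascular macrophages and monocytes. Mice had repeated social defeat stress (R-SDS), repeated encounters with an aggressive mouse, or cage transfer (naive), and cells were taken 1.5 h after the last session. Genotypes were TLR-DKO; CX3CR1EGFP/+, here TLR-DKO, and CX3CR1EGFP/+ alone, here WT. The labels do not spell out the TLR-DKO alleles. The published study describes a loss of Tlr2 and Tlr4, innate immune receptors. Groups were TLR-DKO NAc R-SDS (n = 4), TLR-DKO NAc naive (n = 3), WT NAc R-SDS (n = 3), WT NAc naive (n = 3), TLR-DKO mPFC R-SDS (n = 3), TLR-DKO mPFC naive (n = 4), WT mPFC R-SDS (n = 3) and WT mPFC naive (n = 3). Each sample pooled 3 to 6 mice to reach 500 pg of RNA, which was then amplified. The behavioural labels after R-SDS are susceptible for WT and resilient for TLR-DKO, and naive mice carry neither.

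The 75th percentile of the signal ran from 80.7 to 340.5 intensity units over the arrays, and between 49.97% and 71.0% of spots were well above background. Within groups, arrays correlated across genes at r = 0.80 to 0.92. Replicate 1 of TLR-DKO mPFC naive and replicate 3 of WT mPFC R-SDS stood apart, with mean correlations to the other arrays of 0.83 and 0.79. All 10 microglial markers were well above background on all 26 arrays. The Tlr2 probe was well above background on 0 of the 14 TLR-DKO arrays and on all 12 WT arrays, with group means of -4.23 to -3.77 in TLR-DKO and 1.37 to 1.93 in WT. The Tlr4 probe was well above background in every group of both genotypes. Whether it lies inside the deleted part was not determined, so it checks nothing. Of the lists for other cells, perivascular macrophage markers had all 7 genes measured, none of them well above background on all arrays, and 4 of 10 neuronal, 7 of 8 astrocytic, 7 of 8 oligodendrocytic, 4 of 8 endothelial and mural, 3 of 7 monocyte and neutrophil and 4 of 7 lymphocyte markers were measured. Changes in cell mixture and changes in RNA per cell cannot be told apart in these bulk samples.

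Promoters of 67 of the 76 genes were in the RefSeq promoter table (GRCm38.p6; 250 bases before to 50 bases after the start). The others were Mrpl4, Mrpl13, Mrpl15, Mrpl19, Mrpl38, Mrpl54, Mrps28, Mrps34 and Mrps35. Promoters are shown because nuclear respiratory factor 1 (NRF-1) and GA-binding protein (GABP, an ETS factor) are known regulators of nuclear genes for mitochondrial proteins. The NRF-1 letters (GCGCA, then any base, then GCGC) were searched on both strands, as were the GABP letters CCGGAAG. The NRF-1 letters were in 13 of the 67 promoters (19.4%), against 9.55% of the promoters of tested genes and 5.19% of all 27025 in the table. The GABP letters were in 25 promoters (37.3%), against 16.9% of tested genes and 9.93% of all. Mrpl17, Mrpl57, Mrps21 and Mrps26 held both, 5.97% of members against 2.18% of tested genes. Respiratory chain and ATP synthase promoters held the NRF-1 letters in 25.8% and the GABP letters in 25.8%, and cytosolic ribosomal protein promoters held them in 9.09% and 40.0%. These shares describe letters, not bound sites. The 5 stretches printed here are those of stalk protein Mrpl12 (chr11:120484387-120484636, plus strand), Mrpl17 (chr7:105811088-105811337, minus), Mrps21 (chr3:95871515-95871764, minus), Mrps12 (chr7:28741822-28741967, minus) and Mrpl46 (chr7:78783090-78783130, minus), each 5′ to 3′ on the gene's strand and ending just before its start. Capitals mark motif letters within the printed bases. The GABP letters of Mrps21 are not among them. In Mrpl17, whose stretch holds both motifs, the matches lie apart.
Mrpl12: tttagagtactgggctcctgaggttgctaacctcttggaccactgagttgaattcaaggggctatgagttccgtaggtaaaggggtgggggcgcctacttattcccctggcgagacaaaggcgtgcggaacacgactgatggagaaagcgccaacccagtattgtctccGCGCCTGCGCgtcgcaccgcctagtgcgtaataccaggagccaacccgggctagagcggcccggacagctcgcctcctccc
Mrpl17: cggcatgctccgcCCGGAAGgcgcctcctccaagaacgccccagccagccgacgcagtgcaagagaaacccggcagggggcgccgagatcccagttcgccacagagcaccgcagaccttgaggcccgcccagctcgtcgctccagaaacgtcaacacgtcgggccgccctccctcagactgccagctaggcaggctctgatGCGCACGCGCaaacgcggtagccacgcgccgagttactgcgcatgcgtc
Mrps21: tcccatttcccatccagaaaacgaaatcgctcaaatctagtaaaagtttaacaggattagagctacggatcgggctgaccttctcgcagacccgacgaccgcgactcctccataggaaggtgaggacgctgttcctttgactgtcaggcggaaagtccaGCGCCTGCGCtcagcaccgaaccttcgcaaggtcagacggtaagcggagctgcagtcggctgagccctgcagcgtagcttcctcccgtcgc
Mrps12: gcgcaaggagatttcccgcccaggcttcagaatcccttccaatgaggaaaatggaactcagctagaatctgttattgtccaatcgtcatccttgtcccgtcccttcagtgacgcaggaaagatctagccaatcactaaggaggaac
Mrpl46: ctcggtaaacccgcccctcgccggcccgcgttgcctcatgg

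The last 2 stretches lie between divergent genes and hold neither motif in the printed bases. The full promoter window of Mrps12 does hold the GABP letters, but not within these bases. Mrps12 starts 147 bases from Sars2, the mitochondrial seryl-tRNA synthetase, and the shown bases stop short of the Sars2 start. Mrpl46 and Mrps11 start 42 bases apart on opposite strands, so 1 short stretch serves a protein of each subunit. A divergent start within 500 bases was found for 22 of the 67 members (32.8%), against 14.9% of tested genes and 10.9% of all genes in the table. Of 17 such pairs with both genes tested, the array deviations from the group means correlated at a median r of 0.06 over 26 arrays, from -0.46 for Mrpl49 and Fau to 0.43 for Mrpl50 and Zfp189. Mrps12 and Sars2 had r = 0.32, and Mrpl46 and Mrps11 had r = 0.04. A shared promoter region was thus not accompanied by close agreement between these pairs on these arrays.

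Levels of single mitoribosomal genes differed widely between arrays of the same group. The median SD within groups was 1.34 on the log2 scale for the 76 genes, against 0.76 for all genes tested, and 49 of the 76 had an SD above 1. Genes were also compared at like levels. Among genes with a mean below -2, the median SD was 1.50 for 11 members and 0.98 for 3964 other named genes. Between -2 and 0 it was 1.48 for 22 members and 1.08 for 4132 others. Between 0 and 2 it was 1.39 for 28 members and 0.93 for 3240 others, and above 2 it was 0.75 for 15 members and 0.55 for 2959 others. The members were thus the wider set in all 4 level classes. What else this spread moves with was not tested.

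Mrps10, a small-subunit protein with a bacterial homologue, was the steadiest member, at 6.55 to 7.68 over the 26 arrays and an SD of 0.27 within groups. Mrpl2 (SD 0.37), Mrpl27 (SD 0.39) and Mrpl41 (SD 0.46), all of the large subunit, followed. At the other end, Mrpl37, a large-subunit protein found only in mitochondria, had an SD of 2.61. Its 4 arrays of TLR-DKO mPFC naive microglia read -5.86, -5.66, 4.36 and 0.04. A single group thus spanned the gene's whole range. Mrps17 (SD 2.29), Mrps6 (SD 2.27), Mrpl9 (SD 2.24) and Mrps9 (SD 2.15) were nearly as wide. In all, 34 members were well above background on all 26 arrays, and between 50 (WT mPFC R-SDS replicate 3) and 76 members were so on a single array.

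**Figure D1:**
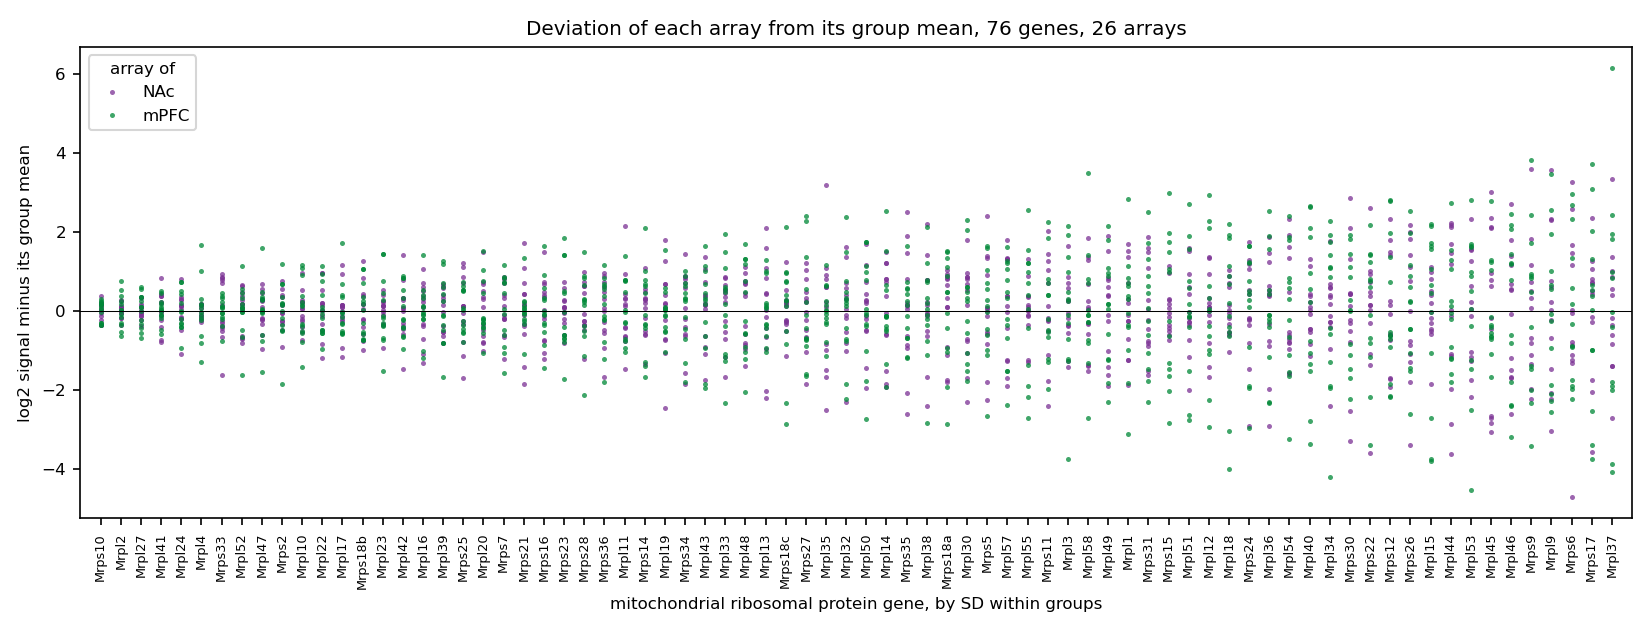
Deviation of each array from its own group mean (log2) for the 76 mitoribosomal genes, ordered by their SD within groups, with NAc arrays in purple and mPFC arrays in green. The spread widens from Mrps10 (SD 0.27) to Mrpl37 (SD 2.61), with arrays of both regions across the whole width.

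A second probe gave a check on some of these swings. Of the 76 genes, 20 had more than 1 passing probe, and the array deviations of the brightest and the next correlated at a median r of 0.34 over 26 arrays, from -0.39 for Mrps2 to 0.92 for Mrpl40. The same measure was 0.17 for 3399 other named genes and 0.87 for 50 cytosolic ribosomal protein genes. Mrpl40, a large-subunit protein found only in mitochondria, read 0.68, -3.31, 0.14 and -5.35 in TLR-DKO mPFC naive microglia, -2.97, -3.42 and 0.73 in WT mPFC R-SDS and -5.89, -1.22 and -2.14 in WT mPFC naive. Its probes had SDs of 1.74 and 1.82 and moved together. Mrps17, the homologue of bacterial S17, read -2.81, 0.96 and 4.67 in WT mPFC R-SDS microglia and -3.98, -1.57, 0.73 and 2.52 in TLR-DKO mPFC naive. Its probes also correlated at 0.92, with SDs of 2.29 and 1.71. For these 2 genes the swings between pools of 1 group were therefore seen by both probes, while 3 of the 20 genes had probes with r below 0. The probes of a gene share the sample and its amplification.

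The genes did not vary together. Over all 2850 pairs of members, with the group means subtracted, the median r across 26 arrays was 0.00 (quartiles -0.17 and 0.19), and 50.6% of pairs lay above 0. Among the 34 genes well above background on every array, it was 0.02 over 561 pairs. The median was 0.60 for cytosolic ribosomal protein genes, with 93.1% of 2701 pairs above 0, and 0.09 for respiratory chain and ATP synthase genes, with 62.6% of 3240 pairs above 0. Many cytosolic ribosomal protein genes have near-identical pseudogenes, and all pairs share the same arrays. The median level was 0.31 for members, 5.48 for cytosolic ribosomal and 2.59 for respiratory chain genes. The median SD of a gene was 1.34, 0.49 and 0.62 in the same order. Correlations were not compared at like levels. The most alike members were Mrpl20 with Mrpl45 (r = 0.81), Mrpl51 with Mrpl55 (r = 0.80) and Mrpl40 with Mrps23 (r = 0.77). The most opposed were Mrpl4 with Mrps18c and Mrpl10 with Mrpl58 (r = -0.71 each). Such extremes are those of 2850 pairs.

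**Figure D2:**
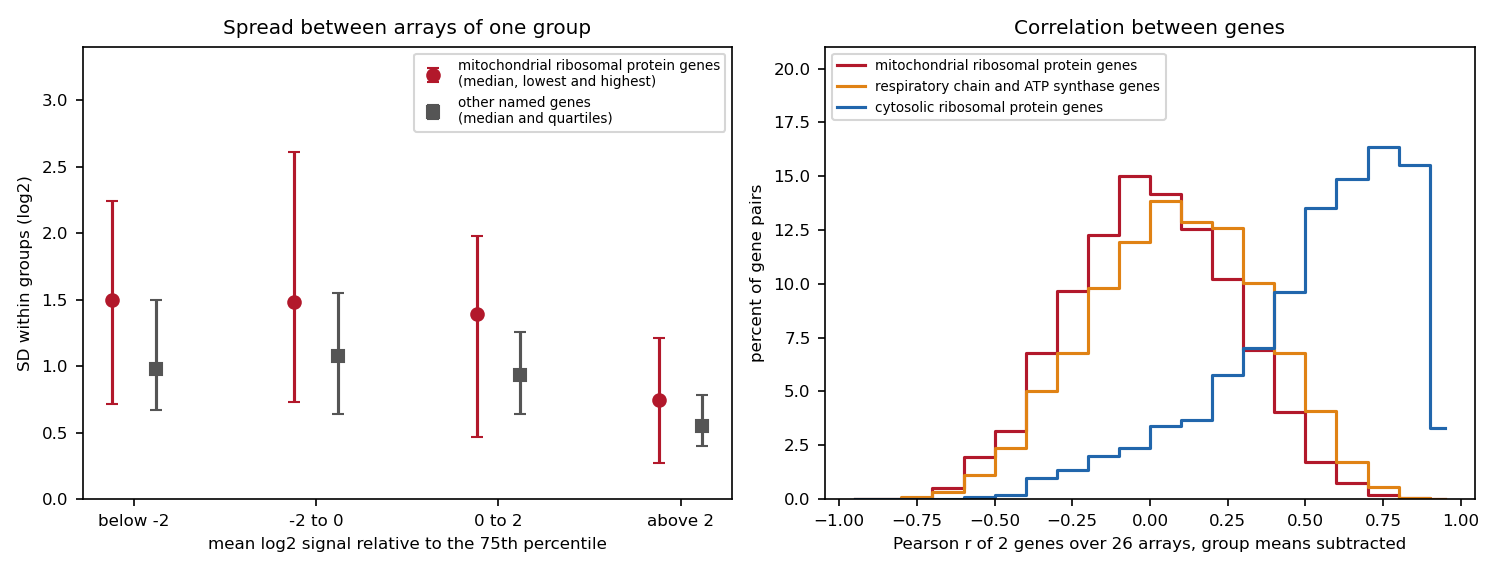
Left, SD within groups (log2) by level class, with the median, lowest and highest of the members beside the median and quartiles of other named genes. Right, the percent of gene pairs by their correlation over 26 arrays for members, cytosolic ribosomal protein genes and respiratory chain genes; the members' pairs centre on 0 while the cytosolic ribosomal pairs centre near 0.60.

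A member correlated with the mean of the other members at a median r of 0.06, with 47 of 76 above 0. Mrpl14 and Mrpl38 (0.49 each) and Mrps5 (0.46) followed the mean most, and Mrps10 (-0.58), Mrpl27 (-0.37) and Mrps16 (-0.35) ran against it. Among genes outside the set, those most like the members' mean were Zfp866 (r = 0.80), Eif2b2 (0.79), Abcc5 (0.75), A830052D11Rik (0.74) and Stk24 (0.70), over 26 arrays. Such values are the extremes of a search through the 14371 named genes tested, members left out. They were not tested.

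The mean over the 76 genes had an SD of 0.23 within groups, against 0.36 for the mean of 74 cytosolic ribosomal protein genes and 0.21 for that of 81 respiratory chain genes. It averaged 0.41 ± 0.21 in TLR-DKO NAc R-SDS (SD, n = 4), 0.35 ± 0.45 in TLR-DKO NAc naive (n = 3), 0.26 ± 0.22 in WT NAc R-SDS (n = 3) and 0.32 ± 0.31 in WT NAc naive (n = 3). In the mPFC it averaged 0.44 ± 0.07 in TLR-DKO R-SDS (n = 3), 0.15 ± 0.11 in TLR-DKO naive (n = 4), 0.46 ± 0.16 in WT R-SDS (n = 3) and 0.38 ± 0.15 in WT naive (n = 3). In TLR-DKO mPFC, the means of the stressed arrays (0.38 to 0.51) lay above those of the naive ones (-0.00 to 0.25). The medians over the members overlapped there, at 0.36 to 1.22 after R-SDS and 0.39 to 0.58 in naive cells. The mean includes Mrpl35, which met the rule through this stressed group alone. In each other pairing of stressed with naive arrays the ranges of the mean overlapped. By slide the means were 0.39, 0.29, 0.30 and 0.38, and by scan day 0.34 and 0.34.

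**Figure D3:**
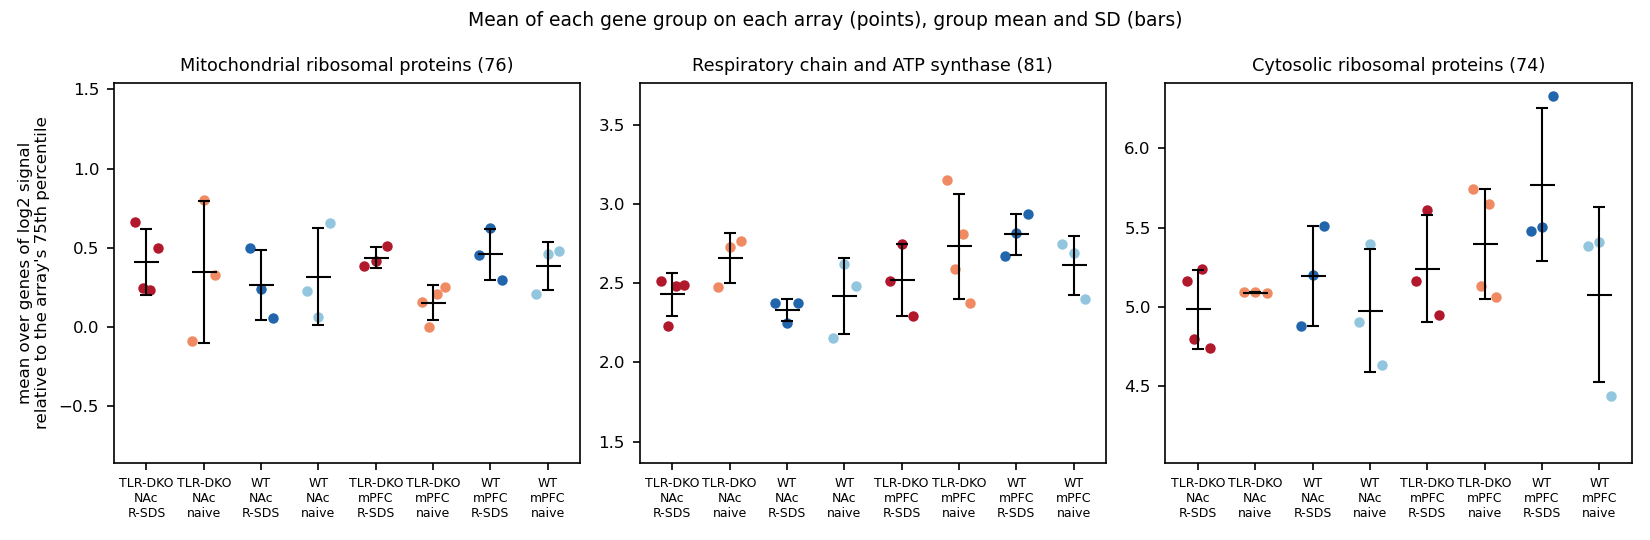
Mean level (log2, relative to the array's 75th percentile) per array of the 76 mitoribosomal genes, 81 respiratory chain and ATP synthase genes and 74 cytosolic ribosomal protein genes, by group, with group means and SD bars on equal spans. The members' mean stays between -0.09 and 0.80 on all 26 arrays.

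The first question of the design was what defeat stress does in microglia of each region and genotype. No mitoribosomal gene passed the test: 0 of 76 were called (limma, Benjamini-Hochberg over 24738 genes, adjusted p under 0.05) in WT mPFC, where 0.00808% of all genes were called, in TLR-DKO mPFC (0%), in WT NAc (0%), in TLR-DKO NAc (0.00808%) or in the mean of the 4 settings (0%). At an unadjusted p under 0.05, stressed microglia had 2 members higher and 1 lower in WT mPFC (all genes 5.9%), 5 and 2 in TLR-DKO mPFC (5.07%), 2 and 0 in WT NAc (2.93%), 3 and 0 in TLR-DKO NAc (3.04%) and 4 and 2 in the mean (5.47%). The members higher in TLR-DKO mPFC and in the mean include Mrpl35, whose differences there partly restate the rule. In the mean of the settings, 44 of 76 members stood above 0 with a median difference of 0.09, against 55.9% of all genes and a median of 0.04. The medians in single settings ran from -0.06 to 0.07.

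By role, the median of the averaged stress difference was 0.07 for conserved large-subunit proteins (16 of 27 above 0), 0.10 for large-subunit proteins found only in mitochondria (10 of 19), 0.13 for conserved small-subunit proteins (10 of 16) and 0.08 for small-subunit proteins found only in mitochondria (6 of 10). The stalk proteins that receive the elongation factors, Mrpl10, Mrpl11, Mrpl12, Mrpl53 and Mrpl54, had a median of -0.59 with 2 of 5 above 0. None of these 5 passed the test.

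Mrpl12, the stalk protein that contacts translation factors, had the lowest averaged stress difference of any member, with stressed cells lower in all 4 settings. It read -0.24, -0.36, -0.72 and -0.46 in TLR-DKO NAc R-SDS microglia and -0.26, 1.26 and 2.51 in TLR-DKO NAc naive. In WT NAc it read -0.44, -1.49 and -3.50 after R-SDS and -0.40, 0.31 and 1.36 in naive cells, with no overlap. In TLR-DKO mPFC it read -1.23, -1.87 and -0.59 after R-SDS and -3.70, 2.18, -3.00 and 1.54 in naive cells. In WT mPFC it read -2.10, 0.99 and -2.21 after R-SDS and 0.76, 0.48 and 0.04 in naive cells. The naive TLR-DKO mPFC arrays alone spanned more than all stressed arrays. The averaged difference was -1.47 ± 0.59 (SE; means -1.15 and 0.32) with an unadjusted p of 0.0224 and an adjusted p of 0.887 in the limma fit.

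Mrpl35, a large-subunit protein with a bacterial homologue, was close to background. It read -1.18, -2.33 and -0.01 in TLR-DKO mPFC R-SDS microglia and -5.92, -5.80, -5.70 and -5.49 in TLR-DKO mPFC naive. No naive array was well above background there and all 3 stressed arrays were, which gives a level at least 9.18-fold higher after R-SDS. The gene was measured only through this stressed group, so this fold and the fitted difference of 4.55 ± 0.95 (SE) are descriptions. The fitted difference did not pass over all genes (limma adjusted p = 0.381). In WT mPFC the gene read -5.49, -5.44 and -4.54 after R-SDS and -4.33, -5.26 and -3.83 in naive cells, a difference of -0.69 ± 1.02. In TLR-DKO NAc it read 0.31, -2.07, -5.39 and -4.37 after R-SDS and -5.76, -4.32 and -4.69 in naive cells. In WT NAc it read -2.58, -3.08 and -5.35 after R-SDS and -4.62, -5.69 and -3.80 in naive cells. Only in TLR-DKO mPFC did stressed and naive arrays not overlap. The averaged difference, which partly restates the rule too, was 1.73 ± 0.49 (SE), over groups of which 4 had no array well above background. Background correction by normexp with an offset of 50, which lowers log2 differences of dim probes in any case, brought the TLR-DKO mPFC difference to 1.23 and the averaged one to 0.56.

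Other members stood out in 1 setting each, none past the test. Mrps26, a small-subunit protein found only in mitochondria, read 0.43, 1.12 and 1.09 in WT mPFC R-SDS microglia and -4.47, -3.39 and -0.96 in WT mPFC naive (3.82 ± 1.41, SE; adjusted p = 0.830). Its averaged difference was 1.61 ± 0.68 (adjusted p = 0.893), above 0 in all 4 settings, but 0.63 by its second probe, which was well above background on 26 arrays against 21 for the first. In TLR-DKO mPFC, the stalk-base protein Mrpl11 read 1.48, 2.94 and 2.15 after R-SDS and 3.37, 4.78, 4.01 and 5.09 in naive cells (-2.12 ± 0.72; adjusted p = 0.903). Also in TLR-DKO mPFC, Mrpl42, found only in mitochondria, read 2.88, 1.34 and 1.77 after R-SDS and 3.67, 4.42, 4.22 and 3.25 in naive cells (-1.89 ± 0.58; adjusted p = 0.844). Stressed and naive arrays did not overlap for either gene. In WT NAc, Mrpl38, of the large subunit's central protuberance, read -0.41, -0.43 and -0.22 after R-SDS and -5.21, -4.05 and -1.35 in naive cells (3.19 ± 1.08; adjusted p = 0.9999). In TLR-DKO NAc, Mrpl51, a large-subunit protein found only in mitochondria, read 1.12, 0.87, 1.74 and 0.85 after R-SDS and -3.02, -0.33 and -2.21 in naive cells (3.00 ± 1.13), but in WT NAc it read 0.88, -2.72 and -0.30 after R-SDS and 0.10, 1.75 and 0.64 in naive cells.

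Members whose arrays did not overlap between stressed and naive groups numbered 5 higher and 1 lower in WT mPFC (all genes 8.1% in either direction), 4 and 2 in TLR-DKO mPFC (6.25%), 2 and 5 in WT NAc (8.17%) and 1 and 1 in TLR-DKO NAc (4.22%). The 4 higher in TLR-DKO mPFC include Mrpl35, measured only through that stressed group. Mrpl17, an exit-tunnel protein, was higher in all 4 settings by an average of 0.74 ± 0.29 (SE; means 2.08 after R-SDS and 1.34 in naive cells; adjusted p = 0.887). Mrps12, the homologue of the decoding-centre protein S12, averaged 1.01 higher after R-SDS. In WT mPFC it read 1.99, 2.93 and 6.62 after R-SDS and 0.41, 3.81 and -1.18 in naive cells. Among the other averaged stress differences, Mrps6 stood at 1.41, Mrpl38 at 1.23, Mrps11 at -1.15, Mrpl57 at -1.06, Mrps5 at 1.00, Mrpl1 at 0.91, Mrpl11 at -0.59 and Mrps16 at 0.55, each with an adjusted p between 0.893 and 0.943. Mrps5 and Mrpl1 met the rule only through stressed NAc groups, so their averaged stress differences partly restate the rule and are descriptions. The value of Mrps6 was 0.82 without WT NAc naive replicate 2, and that of Mrpl1 was 0.55 without WT mPFC R-SDS replicate 3.

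Whether stress acted differently by genotype was tested as an interaction, with 0 of 76 members called in the mPFC and 0 in the NAc (0% of all genes in both). In the mPFC, 7 members had a higher and 3 a lower stress difference in TLR-DKO than in WT at an unadjusted p under 0.05 (all genes 6.09%), and in the NAc 2 and 1 (2.52%). The 7 include Mrpl35, which was measured only through TLR-DKO mPFC R-SDS, so its interaction partly restates the rule. For Mrps16, a conserved small-subunit protein linked to human mitochondrial disease, the NAc arrays read -0.30, -1.52, 0.73 and -1.999 in TLR-DKO R-SDS, 0.47, -0.31 and 1.17 in TLR-DKO naive, 0.31, 0.88 and 0.39 in WT R-SDS and -0.85, -0.58 and -2.32 in WT naive. Its interaction was -2.99 ± 0.99 (SE; adjusted p = 0.9999).

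The second question was how TLR-DKO microglia differ from WT. No member was called in naive mPFC, where 0.0121% of all genes were, in R-SDS mPFC (0.0121%), in naive NAc (0.0121%), in R-SDS NAc (0.00808%) or in the mean of the 4 settings (0.0202%). At an unadjusted p under 0.05, TLR-DKO microglia had 2 members higher and 4 lower in naive mPFC (all genes 5.69%), 3 and 2 in R-SDS mPFC (5.84%), 1 and 3 in naive NAc (3.3%), 3 and 0 in R-SDS NAc (4.03%) and 2 and 1 in the mean (8.23%). The 3 higher in R-SDS mPFC include Mrpl35, whose difference there partly restates the rule. In the mean, 34 of 76 stood above 0 with a median of -0.04, against 38.5% of all genes and a median of -0.09. The median was -0.16 for conserved large-subunit proteins (10 of 27 above 0), 0.05 for large-subunit proteins found only in mitochondria (10 of 19), 0.05 for conserved small-subunit proteins (8 of 16), -0.16 for small-subunit proteins found only in mitochondria (4 of 10) and 0.20 for the stalk (4 of 5). The naive groups that enter here also enter the stress comparisons.

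Mrps2, the homologue of bacterial S2, had the lowest p of the members for genotype. It read 1.26, 1.92, 2.10 and 1.68 in TLR-DKO NAc R-SDS, 1.62, 1.15 and 0.87 in WT NAc R-SDS, 1.45, 1.45 and 2.26 in TLR-DKO NAc naive and 0.46, 2.14 and 1.54 in WT NAc naive. In the mPFC it read 1.34, 2.17 and 1.99 in TLR-DKO R-SDS, 1.46, 0.94 and -1.59 in WT R-SDS, 0.50, 1.67, 0.63 and 1.21 in TLR-DKO naive and 0.58, 0.22 and 0.40 in WT naive. The ranges overlapped in all 4 settings, and the low value of -1.59 is that of the array that stood furthest apart. The averaged difference was 0.76 ± 0.28 (SE; means 1.57 and 0.82; unadjusted p = 0.0133; adjusted p = 0.481). Its second probe differed by -0.02, and the brighter one by 0.45 with array weights.

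In naive mPFC, Mrpl50, a large-subunit protein found only in mitochondria, read 2.14, 0.96, 1.02 and 1.29 in TLR-DKO and -3.59, -1.75 and -0.07 in WT (3.16 ± 0.98, SE; adjusted p = 0.641). Its averaged difference of 1.16 ± 0.50 stood against -1.60 by its second probe, so the probes disagreed in sign. Mrpl11 read 3.37, 4.78, 4.01 and 5.09 in TLR-DKO naive mPFC and 0.88, 1.61 and 3.31 in WT (2.38 ± 0.72; adjusted p = 0.638). Mrps28, of the small subunit, read -1.56, -2.82, -3.07 and -2.28 in TLR-DKO and -0.95, -0.16 and -0.23 in WT (-1.99 ± 0.69, limma adjusted p = 0.746). None of these 3 overlapped between the genotypes. In R-SDS NAc, the stalk protein Mrpl53 read 1.36, 1.19, 0.15 and 2.58 in TLR-DKO and -0.70, -2.02 and -4.01 in WT (3.56 ± 1.45; adjusted p = 0.997). Arrays of the genotypes did not overlap for 3 members higher and 6 lower in naive mPFC (all genes 5.74%), 6 and 2 in R-SDS mPFC (9.23%), 2 and 2 in naive NAc (7.39%) and 2 and 4 in R-SDS NAc (7.2%). The 6 higher in R-SDS mPFC include Mrpl35, measured only through the TLR-DKO group there. Among averaged differences, Mrpl13, homologous to bacterial L13, stood at -1.07 ± 0.46 (adjusted p = 0.551), below 0 in all 4 settings, and Mrps34 at 0.80 ± 0.41 (adjusted p = 0.623), above 0 in all 4. Mrpl54 stood at 1.15, Mrpl32 at -0.83, Mrpl58 at -0.78, Mrps28 at -0.70, Mrps23 at -0.55, Mrps18b at 0.52 and Mrpl23 at 0.45, each with an adjusted p between 0.623 and 0.739. The value of Mrpl58 was -0.34 without WT mPFC R-SDS replicate 3, and that of Mrpl32 was -0.54 without TLR-DKO NAc naive replicate 1.

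The third question was how accumbens microglia differ from prefrontal ones. In the mean of the 4 settings, 0.897% of all genes were called, 222 genes, of which 21 were higher and 201 lower in the NAc. None of them was a mitoribosomal gene. With slide as a random block, 0 genes were called. No member was called in naive WT (0%), R-SDS WT (0.00404%), naive TLR-DKO (0%) or R-SDS TLR-DKO (0.00404%) either. At an unadjusted p under 0.05 the mean had 2 members higher and 1 lower, against 15.4% of all genes, and the single settings had 1 and 0 (5.16%), 2 and 2 (8.51%), 3 and 0 (8.01%) and 1 and 0 (2.56%). The members higher in the mean and in R-SDS WT include Mrps5, which met the rule only through the stressed NAc groups. In the mean, 38 of 76 stood above 0 with a median of -0.01, against 44.7% of all genes and a median of -0.06. Mrps symbols had a median of 0.15 (18 of 29 above 0) and Mrpl symbols -0.12 (20 of 47). Large-subunit proteins found only in mitochondria had the lowest role median, -0.31, with 7 of 19 above 0 and none past an unadjusted p of 0.05.

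**Figure D4:**
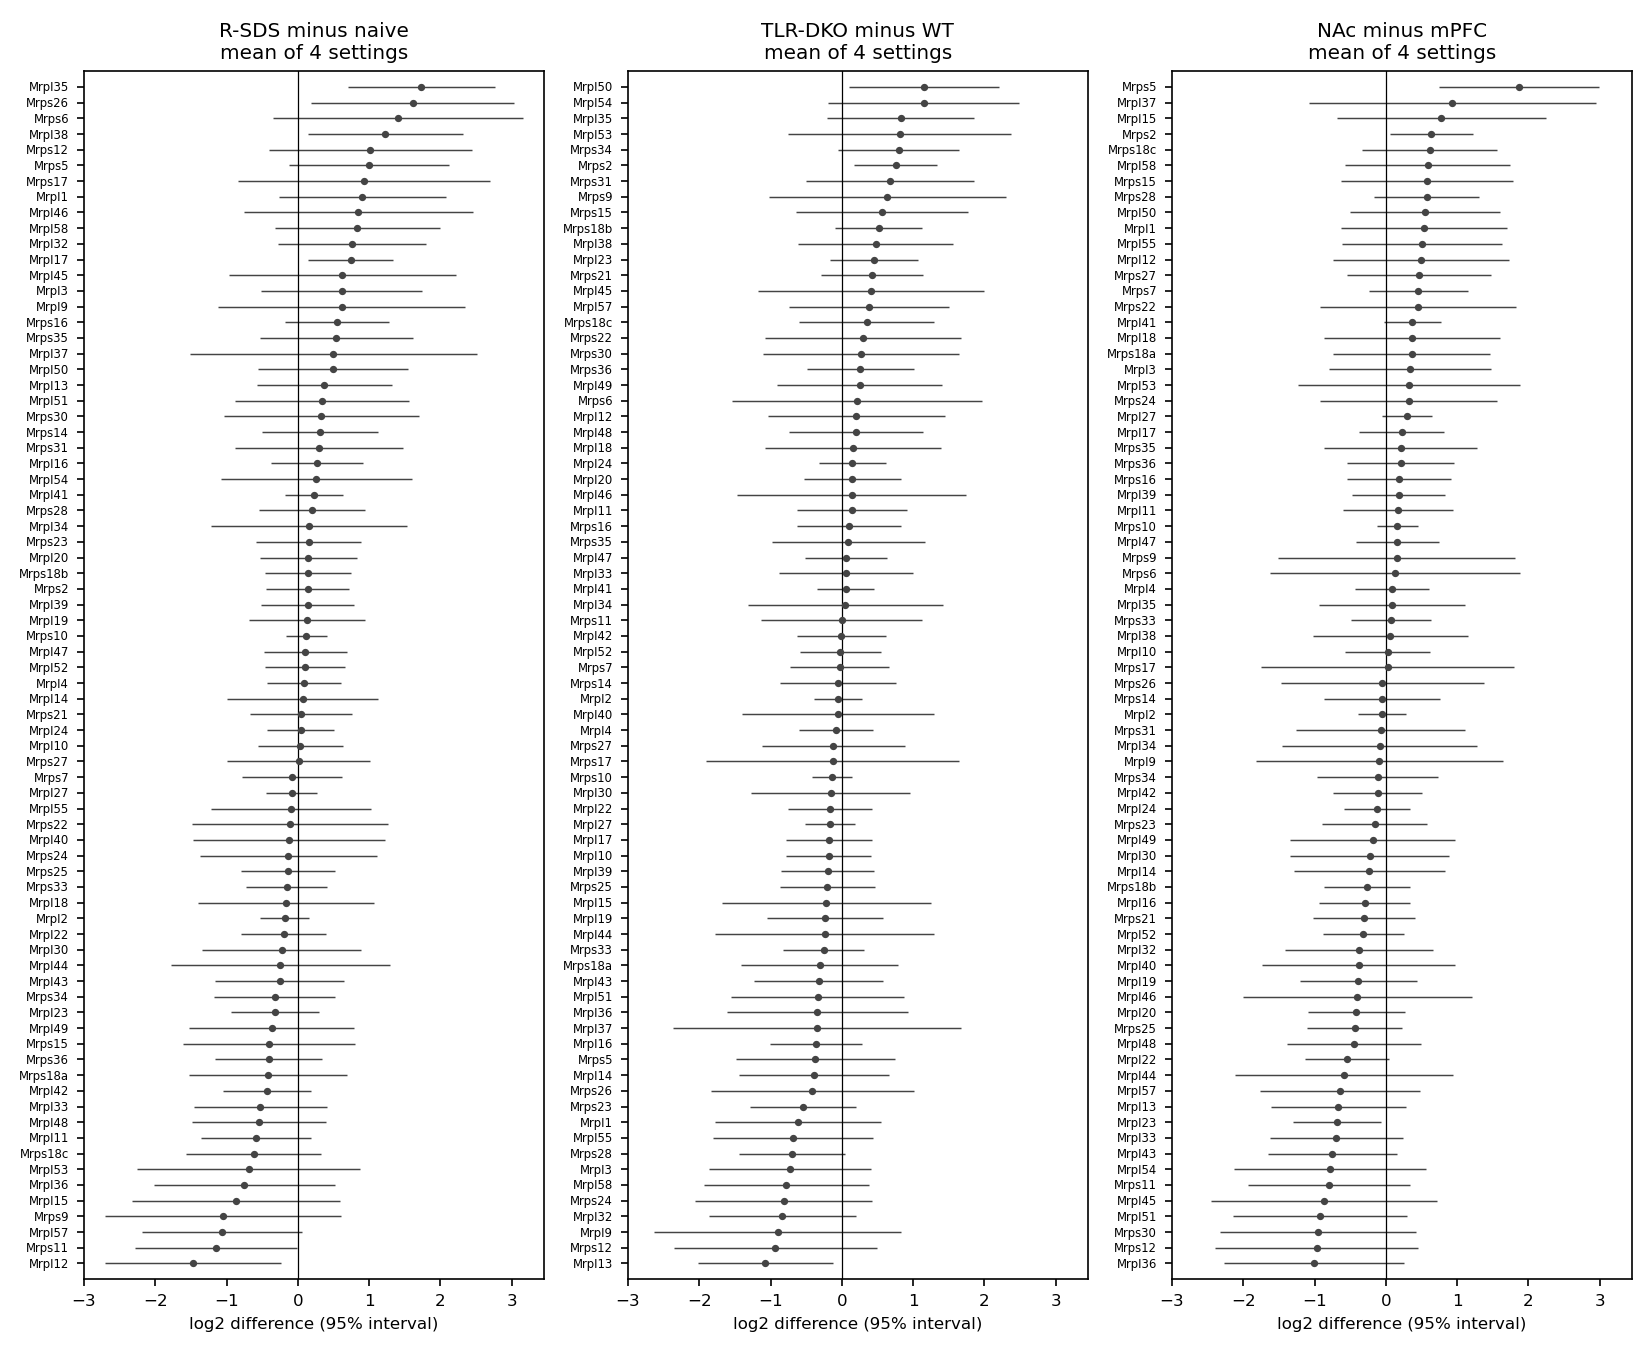
Averaged difference (log2) with its 95% interval for each of the 76 genes, sorted within each panel, for R-SDS minus naive, TLR-DKO minus WT and NAc minus mPFC. The points cross 0 near the middle of each panel, with medians of 0.09, -0.04 and -0.01.

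Mrps5, the homologue of bacterial S5, was the member with the lowest p for region. It met the rule only through the stressed NAc groups. Its region differences after R-SDS and on average therefore partly restate the rule and are descriptions. It read -1.95, -0.04, -2.28 and -1.43 in TLR-DKO NAc R-SDS and -1.46, -5.15 and -0.84 in TLR-DKO mPFC R-SDS. In naive TLR-DKO it read -4.38, -0.19 and -3.17 in the NAc and -5.12, -5.86, -5.27 and -4.69 in the mPFC, where no array was well above background. In WT after R-SDS it read -1.14, -1.35 and -1.16 in the NAc and -4.85, -3.15 and -3.60 in the mPFC. In naive WT it read -1.12, -4.28 and -0.69 in the NAc and -3.60, -4.28 and -1.54 in the mPFC. The regions did not overlap in R-SDS WT (2.65 ± 1.11, SE; adjusted p = 0.561) or naive TLR-DKO (at least 3.47-fold; adjusted p = 0.497), and overlapped in the other settings (1.11 ± 1.11 in naive WT and 1.06 ± 1.04 in R-SDS TLR-DKO).

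The averaged region difference of Mrps5 was 1.87 ± 0.54 (SE; 95% interval 0.75 to 2.99; means -1.81 in NAc and -3.68 in mPFC), 3.66-fold as fitted over settings that include a group with no array well above background, with an unadjusted p of 0.0023 and an adjusted p of 0.105. As this averaged difference partly restates the rule, it is a description. It was past the threshold with array weights (2.02, limma adjusted p = 0.0483). With slide taken as a random block it was 1.83 (limma adjusted p = 0.826), and it shrank to 0.54 with normexp and an offset of 50. Such an offset lowers log2 differences of dim probes in any case, so that value does not check the difference. Each slide held arrays of 1 region, 2 slides per region, so the random block is the only check on slides. Perivascular macrophage markers also moved with region: 0 of 7 stood above 0, with a median of -2.58 and 1 called lower (all genes 0.897% called). Their summed signal, on the same log2 scale, was -2.05 to 3.11 in the NAc and 2.32 to 5.89 in the mPFC. The median of the astrocyte list was -0.99 with 0 called. The part of these cells in the members' values was not tested.

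**Figure D5:**
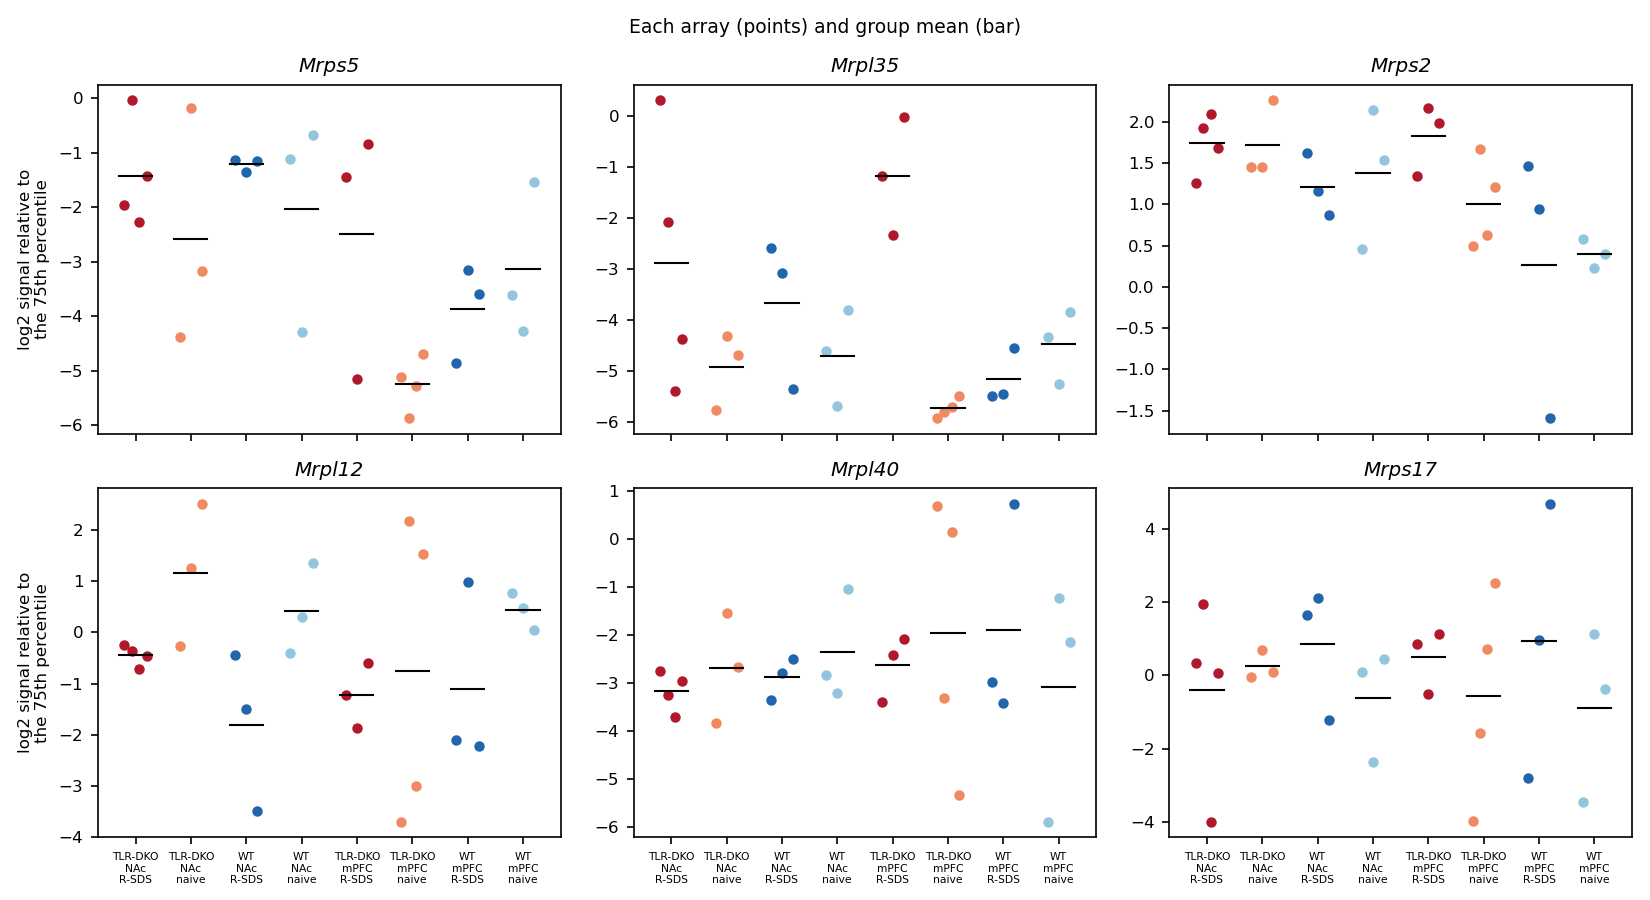
Level (log2, relative to the array's 75th percentile) on each array of Mrps5, Mrpl35, Mrps2, Mrpl12, Mrpl40 and Mrps17 by group, with group means as bars. Mrps5 lies lowest in TLR-DKO mPFC naive (-5.86 to -4.69) and Mrpl35 is highest in TLR-DKO mPFC R-SDS and on single NAc arrays, while Mrpl40 and Mrps17 swing within groups.

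Other members stood out by region in single settings, none past the test. In R-SDS WT, Mrpl23, a protein at the tunnel exit, read 0.97, -0.37 and 1.09 in the NAc and 1.80, 1.84 and 3.98 in the mPFC (-1.98 ± 0.61, SE; adjusted p = 0.488). The difference was -1.26 without WT mPFC R-SDS replicate 3, which read 3.98 and is 1 of the 2 arrays that stood apart. Its averaged difference was -0.69 ± 0.30 (adjusted p = 0.274). In naive TLR-DKO, Mrpl58 read 0.15, 1.62 and 2.80 in the NAc and -1.98, -1.81, -1.98 and -0.99 in the mPFC (3.21 ± 1.08; adjusted p = 0.407). Both were without overlap. Among averaged differences, Mrpl36 stood at -1.01, Mrpl51 at -0.92, Mrpl43 at -0.75, Mrpl33 at -0.69, Mrpl13 at -0.66, Mrps2 at 0.64, Mrps28 at 0.57, Mrpl22 at -0.54 and Mrpl41 at 0.37, with adjusted p between 0.283 and 0.504. Without WT mPFC R-SDS replicate 3, Mrps2 stood at 0.40 and Mrps28 at 0.30, and without WT NAc R-SDS replicate 1, Mrpl13 stood at -0.41. Arrays of the regions did not overlap for 3 members higher and 0 lower in naive WT (all genes 11.6%), 4 and 8 in R-SDS WT (12.9%), 3 and 0 in naive TLR-DKO (8.16%) and 1 and 2 in R-SDS TLR-DKO (4.98%). The 4 higher in R-SDS WT include Mrps5, whose difference there partly restates the rule.

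The absence of calls limits some members more than others. The 95% interval of the averaged difference lay within ±1 on the log2 scale for 23 of 76 members for stress, 21 for genotype and 21 for region, against 59.8%, 57.3% and 53.6% of all genes. It lay within ±2 for 57, 67 and 65. The median SE of an averaged difference was 0.50 for members and 0.30 for all genes. For the 34 members well above background on every array it was 0.32, and 19 of them lay within ±1 in each comparison. Mrps10 and Mrpl27 were among the members with narrow intervals. Mrps10 read 7.25, 7.19, 7.01 and 6.85 in TLR-DKO NAc R-SDS, 7.40, 6.84 and 7.40 in TLR-DKO NAc naive, 7.30, 7.55 and 7.44 in WT NAc R-SDS and 7.68, 7.32 and 6.94 in WT NAc naive. In the mPFC it read 7.25, 7.33 and 6.76 in TLR-DKO R-SDS, 7.21, 7.01, 6.71 and 7.19 in TLR-DKO naive, 7.39, 7.02 and 7.56 in WT R-SDS and 7.21, 6.96 and 6.55 in WT naive. Of its 12 comparisons between paired groups, 1 was without overlap, TLR-DKO lower than WT in R-SDS NAc (-0.35; adjusted p = 0.997). Its averaged differences had 95% intervals of -0.16 to 0.40 for stress, -0.42 to 0.15 for genotype and -0.12 to 0.45 for region. Mrpl27, homologous to bacterial L27 at the peptidyl transferase centre, had intervals of -0.44 to 0.27, -0.52 to 0.19 and -0.06 to 0.65. Its region difference of 0.30 ± 0.17 was above 0 in all 4 settings (adjusted p = 0.413).

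Mrpl3, Mrpl44 and Mrps22, whose human counterparts are mutated in mitochondrial cardiomyopathy, had wide intervals. Mrpl3 read 1.76, 2.47 and 0.20 in TLR-DKO mPFC R-SDS and 2.00, -0.25, -3.69 and 2.21 in TLR-DKO mPFC naive, where 1 array lay far below the rest. Its averaged differences were 0.62 ± 0.54 for stress, -0.73 ± 0.54 for genotype and 0.34 ± 0.54 for region. Mrpl44 read 1.82, 2.54 and -3.25 in TLR-DKO NAc naive and 0.58, -0.29 and 4.23 in WT mPFC R-SDS. Its averaged differences were -0.24, -0.24 and -0.59, each with an SE of 0.74. Mrps22 read 2.55, -3.65 and 0.98 in WT NAc naive and 2.49, 1.55 and -3.08 in WT mPFC R-SDS. Its averaged differences were -0.11, 0.30 and 0.45, each with an SE of 0.66. For the widest members, a difference of several fold would not have been detectable with 3 or 4 arrays per group.

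Set beside the other protein sets of the same arrays, the mitoribosomal genes lay on either side of 0 in each averaged comparison, with 44, 34 and 38 of 76 above it. Of 74 cytosolic ribosomal protein genes, 62 stood above 0 for stress (median 0.16), 12 for genotype (-0.09) and 2 for region (-0.31). Of 81 respiratory chain and ATP synthase genes, 33 stood above 0 for stress (-0.08), 47 for genotype (0.03) and 19 for region (-0.24). None of either set was called, against 0%, 0.0202% and 0.897% of all genes. Centring the arrays on their median instead shifts all genes alike, to member medians of 0.00, 0.09 and 0.07, and turns the cytosolic ribosomal median for genotype to 0.05 and the respiratory chain median for region to -0.15. At an unadjusted p under 0.05, 17 cytosolic ribosomal and 15 respiratory chain genes were lower in the NAc, against 1 member. Of all genes, 15.4% were so in either direction. The median SD of a gene was 1.34 for members, 0.49 for cytosolic ribosomal and 0.62 for respiratory chain genes, so the counts differ in precision. Each slide held arrays of 1 region, so region and slide cannot be told apart here.

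In the remaining machinery of mitochondrial translation, 1 gene passed the test in an averaged comparison. In that comparison, by region, 0.897% of all genes were called. All 5 mitoribosomal proteins outside the Mrp symbols were measured, with 23 of 25 assembly factors, 13 of 16 translation factors, 17 of 20 mitochondrial aminoacyl-tRNA synthetases, 11 of 13 transcription and RNA processing genes and 7 of 9 regulators of mitochondrial biogenesis. For stress, 4, 9, 7, 5, 7 and 2 of them stood above 0, for genotype 2, 11, 8, 10, 4 and 5, and for region 2, 13, 10, 10, 4 and 3. None was called for stress (all genes 0%) or genotype (0.0202%). For region, the mitochondrial prolyl-tRNA synthetase Pars2 alone passed, lower in the NAc by a difference of -0.99 ± 0.23 (SE; limma, Benjamini-Hochberg adjusted p = 0.0403), a call not kept with slide as a random block.

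Within these lists the lowest p for stress was that of Gatc, a subunit of the mitochondrial glutamyl-tRNA amidotransferase, at -1.32 ± 0.40 (adjusted p = 0.691), followed by the elongation factor Guf1 at -1.31 ± 0.46 (adjusted p = 0.814). For genotype, the coactivator Pprc1 stood at 1.38 ± 0.52 (adjusted p = 0.485), the release factor Mtrf1 at -1.28 ± 0.47 (adjusted p = 0.463) and the RNA-degrading Pnpt1 at -1.24 ± 0.48 (unadjusted p = 0.0166). For region, Mterf1a, a mitochondrial termination factor, stood at -0.63 ± 0.18 (adjusted p = 0.108), and Tfb2m, needed to start mitochondrial transcription, at -1.38 ± 0.62 (adjusted p = 0.294). None of these 7 passed the test.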

How the data were processed

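Per the file headers, the deposited scanner files hold single-colour (Cy3) spot intensity values from Agilent Feature Extraction 11.0.1.1, whose processed signal is background-subtracted. The authors' deposited matrix holds log2 values of 55821 probes, which matched the scanner values of the same arrays (r = 1) up to a constant of at most 0.062 per array, with column medians of -2.90 to -2.20. How the authors scaled it is not given in the sources used here. The headers name genome build mm9.

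Here 59305 of 62976 spots were not controls and held 55681 probes. Outlier flags left out 108 probes, and no spot was saturated. RefSeq accessions named 27980 probes through a table of GRCm38.p6. The log2 processed signal was scaled by subtracting each array's 75th percentile and fitted over 26 arrays and 8 group means with limma 3.58.1 in R 4.3.3 (lmFit, eBayes), with Benjamini-Hochberg adjustment over 24738 genes at 0.05. The model gave 17 comparisons, 3 of them means of 4 settings. Lower bounds on folds set the bright group's mean against, per array, the lowest signal well above background. The fit was tested on simulated data. Number of arrays limits the precision.

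Genes named are the 6 with the smallest p per comparison (12 in averaged ones), 8 fixed by role, the extremes of correlation and 3 per pathway list, of which the text shows those it turns on. Mrpl37, Mrpl40 and Mrps17, Mrps10, Mrpl2 and Mrpl27 were named for their spread or probe agreement after their values were seen. Members and lists were chosen with earlier results of these data known. Nothing says that the replicates of a group came from separate sorts beyond 2 independent experiments with different mice, so p-values measure the spread between these samples. The sample titles do not say that replicate numbers pair the samples, and the main fit did not pair them. Alternatives covered background, scaling, filter, probe choice, variance, slide, scan day, replicate number and left-out arrays.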

Additional observations from a re-analysis of the deposited data

Results flagged for a closer look

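In groups of 4 arrays, 2 values of 46 group checks lay far from the other 3, and chance alone gives about 1 in 20. Mrpl17 read 2.63 in TLR-DKO mPFC naive replicate 1, against 0.32 to 0.35 on the other 3 arrays of that group. That array is 1 of the 2 that stood apart over all genes. Without it, the averaged stress difference of Mrpl17 was 0.88 in place of 0.74 (limma adjusted p = 0.467). Mrps26 read -4.43 in TLR-DKO mPFC naive replicate 4, against -1.21 to -0.66 on the other 3. Without that array its averaged stress difference was 1.39 in place of 1.61 (limma adjusted p = 0.917).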

How the results depend on the processing

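Over the 17 comparisons and their alternatives, 451 of 452 counts of called members were 0. The exception was 1 with array weights in the region mean (Mrps5, limma adjusted p = 0.0483), a difference that partly restates the rule. The Mrps5 difference ran from 0.54 (normexp with an offset of 50) to 2.15, and from 1.54 to 2.15 with single arrays left out. Its adjusted p was 0.168 without the 2 outlying arrays, at 1.91. The TLR-DKO mPFC stress difference of Mrpl35, which also partly restates the rule, was 4.16 on slide 1 and 5.65 on slide 2. Slide 1 held 1 naive array and slide 2 held 1 stressed array of this genotype. The member median moved to 0.32 for the mPFC interaction under quantile normalization, to 0.52 for stress in WT mPFC over the 35 members left with the array-wide filter on dim probes, and to -0.44 for genotype in naive NAc on slide 3 alone. With the mean of a gene's probes, Mrpl50 turned to -0.10 in naive mPFC and -0.22 on average for genotype, and Mrps2 to -0.17 in R-SDS mPFC. Mrpl35 turned to -0.38 for stress in TLR-DKO NAc on slide 4 alone, and Mrpl18 to -0.17 for region in naive WT without WT mPFC naive replicate 1, in a range of -0.17 to 2.94 over single arrays left out. The causes were not tested. Median centring moved the all-gene median by 0.13 in the genotype mean. Calls over all genes in the region mean, 222, ran from 0 (slide as a random block) through 10 (normexp) to 447 (array weights), and from 65 to 371 with single arrays left out. In the stress mean they ran from 0 to 10 and in the genotype mean, 5, from 2 to 14. Same-numbered samples of different groups had a median correlation of 0.06 across genes, with 25 of 85 pairs over 0.1. For samples of other numbers the median was -0.04, with 25 of 210 pairs over 0.1, so same-numbered samples were somewhat more alike. With the replicate number as a block, 0 members were called in any comparison, the stress and genotype medians were 0.09 and -0.03, and the region mean called 281 genes.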
